A study of Mus musculus with 18 samples.

Results

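The nuclear genes for subunits of the mitochondrial respiratory chain and ATP synthase were followed in islets of 3 mouse genotypes. They were taken by name from the count table (symbols of the Nduf, Sdh, Uqcr, Cyc1, Cox and Atp5 families), with no measured value in the choice. This gave 86 of 54186 genes: 37 of complex I, 4 of complex II, 9 of complex III, 19 of complex IV and 17 of complex V. All the mice were FVB and 6 weeks old, with 6 mice per genotype and 1 islet library per mouse. hIAPP mice carried a transgene for human islet amyloid polypeptide (IAPP) under the insulin II promoter, rIAPP mice a transgene for the rodent form under the same promoter, and WT mice were wild type. That promoter acts in beta cells, while the libraries hold whole islets. IAPP is a peptide that beta cells secrete with insulin, and the human form aggregates into amyloid while the rodent form does not.

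The respiratory chain passes electrons from NADH (complex I) and succinate (complex II) through complex III to oxygen at complex IV, and complex V uses the resulting proton gradient to make ATP. In beta cells the ATP made from glucose closes potassium channels and so starts insulin secretion. Complexes I, III, IV and V also hold subunits encoded in mitochondrial DNA, whereas complex II is wholly nuclear. Several complex IV subunits exist as a common isoform and another that is restricted to tissues such as muscle, lung or testis.

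Promoter sequence was looked at first, since these genes are known for shared binding sites of nuclear respiratory factor 1 (NRF1), of the ETS family member GABP, of YY1 and of ESRRA. RefSeq windows of 300 bases (250 before to 50 after the start, GRCm38.p6) were found for 69 of the 86 genes. Shares are per gene, and a gene with more than 1 window counted if any of them held the motif. The NRF1 motif stood in 24.6% of the 69 genes, against 5.19% of all 27025 genes with a window, counting both strands. The ETS letters CCGGAAG stood in 24.6% of members against 9.93% of all genes, the YY1 letters AAGATGGC in 14.5% against 3.19%, and the ESRRA letters TCAAGGTCA in 2.90% against 0.466%. At least 1 of these 4 motifs was in 55.1% of members, against 16.8% of all genes. Complex V had the highest share of the larger complexes with 80% of 15 genes, complex I had 51.5% of 33, and complex IV had 23.1% of 13. All 3 complex II windows held a motif. The 4 windows of tissue-restricted complex IV isoforms held 0. In 8 of the 10 members with the YY1 letters, they lay on the sense strand, 22 to 38 bases after the start; of all genes with those letters, 23.0% had them 15 to 42 bases after the start on that strand, a window set after the members were seen.

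The 170 bases before the start are shown for 6 members on the minus strand of GRCm38.p6, with capitals for matches to the NRF1 motif (runs of 10 bases) or the ETS letters (CCGGAAG, or CTTCCGG where the match is on the other strand). Sdha has the most NRF1 matches of these, Cox6a1 and Cox6b1 are common complex IV isoforms, and Cox6b2 is the testis isoform paired with Cox6b1. Ndufs5 and Cox7a2l are shown because both changed below. The stretches are chr13:74350241-74350410 (Sdha), chr5:115348959-115349128 (Cox6a1), chr7:30626115-30626284 (Cox6b1), chr7:4753095-4753264 (Cox6b2), chr4:123718187-123718356 (Ndufs5) and chr17:83514334-83514503 (Cox7a2l).
Sdha: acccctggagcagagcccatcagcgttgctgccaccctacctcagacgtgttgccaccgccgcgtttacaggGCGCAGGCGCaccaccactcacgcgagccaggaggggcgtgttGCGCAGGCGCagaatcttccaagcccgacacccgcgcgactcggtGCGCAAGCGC
Cox6a1: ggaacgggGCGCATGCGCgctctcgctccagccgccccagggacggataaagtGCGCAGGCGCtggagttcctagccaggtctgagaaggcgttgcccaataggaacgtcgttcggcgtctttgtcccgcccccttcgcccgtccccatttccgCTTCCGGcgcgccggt
Cox6b1: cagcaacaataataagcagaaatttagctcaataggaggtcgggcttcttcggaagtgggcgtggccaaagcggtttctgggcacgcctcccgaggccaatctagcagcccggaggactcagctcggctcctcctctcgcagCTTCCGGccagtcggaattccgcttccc
Cox6b2: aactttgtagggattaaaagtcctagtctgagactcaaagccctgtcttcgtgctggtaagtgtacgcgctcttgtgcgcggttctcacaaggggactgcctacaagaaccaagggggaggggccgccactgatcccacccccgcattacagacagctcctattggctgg
Ndufs5: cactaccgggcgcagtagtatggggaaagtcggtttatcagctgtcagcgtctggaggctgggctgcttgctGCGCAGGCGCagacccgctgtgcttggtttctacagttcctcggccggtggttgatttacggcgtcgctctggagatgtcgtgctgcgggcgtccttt
Cox7a2l: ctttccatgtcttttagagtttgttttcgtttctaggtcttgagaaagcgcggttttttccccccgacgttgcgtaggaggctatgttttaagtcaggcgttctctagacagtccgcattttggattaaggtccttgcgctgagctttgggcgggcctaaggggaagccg
In these stretches Sdha has 3 NRF1 matches, Cox6a1 has 2 with an ETS match, Ndufs5 has 1 NRF1 match and Cox6b1 has 1 ETS match. Neither Cox6b2 nor Cox7a2l has a match in its stretch.

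Levels are given in CPM (counts-per-million of the scaled library size), and per kilobase (kb) of exon where genes are set side by side. The exon length merges all annotated exons of a gene, so levels per kb depend on the annotation. Each fold change is a log2 difference from the edgeR quasi-likelihood fit ± its standard error, and a gene was called at a Benjamini-Hochberg adjusted p under 0.05 over the 20244 genes tested. Library totals were 109.6 to 141.5 M counts in hIAPP, 127.6 to 157.5 M in rIAPP and 144.3 to 166.2 M in WT. The mouse Iapp row averaged 25572 ± 3782 CPM in hIAPP, 39144 ± 3728 CPM in rIAPP and 34206 ± 5459 CPM in WT (SD, n = 6 each). Human sequence differs from this row, so it does not check the hIAPP label. Its log2 change of 0.19 in rIAPP against WT was not called, so the row does not check the rIAPP label either. Of 10 beta cell markers, 7 fell in hIAPP against WT, 9 fell in rIAPP against WT, and 9 were higher and Iapp lower in hIAPP against rIAPP, with summed levels of 68720 to 126460 CPM in hIAPP, 73998 to 101938 CPM in rIAPP and 126592 to 158597 CPM in WT. Of 20 acinar markers, 18 rose in hIAPP and 20 in rIAPP against WT and 1 was lower in hIAPP against rIAPP, with summed levels of 3006 to 21455 CPM in hIAPP, 4947 to 21940 CPM in rIAPP and 1088 to 4634 CPM in WT. Of 6 endothelial markers, 3 fell in hIAPP against WT, 6 were lower in hIAPP against rIAPP and 6 rose in rIAPP against WT, with summed levels of 416 to 507 CPM in hIAPP, 607 to 709 CPM in rIAPP and 500.1 to 552 CPM in WT; their part in the members' results was not tested. In whole islets, fewer cells of a type and less RNA per cell cannot be told apart.

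Of the 86 genes, 82 had enough counts to be tested and 79 averaged at least 1 CPM. The 4 not tested were Cox8c, Cox8b, Cox7b2 and Cox6c2, the last annotated as a processed pseudogene. Cox8c had 0 counts in all 18 libraries, which allows up to 0.018 to 0.0274 CPM at 3 counts per library. Together the members took 0.401% of the scaled library size in hIAPP, 0.406% in rIAPP and 0.426% in WT. That order rests on the scaling. By library totals alone the members' median log2 change against WT was above 0, at 0.07 in hIAPP and 0.08 in rIAPP.

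Per kb of exon, the median level of complex I genes was 17.4 CPM in hIAPP, 16.8 in rIAPP and 18.0 in WT. For complex II the medians per kb were 27.8, 27.0 and 28.0 CPM in hIAPP, rIAPP and WT, and for complex III they were 33.1, 31.8 and 32.0 CPM. Complex IV had 26.8, 29.3 and 27.6 CPM per kb and complex V had 16.7, 17.5 and 19.3 CPM per kb, in that order of genotypes. The medians of the 3 genotypes thus lay close together within each complex, and the spread among members of a complex was far wider. The highest members per kb were Atp5a1, the catalytic head's alpha subunit (147, 152 and 159 CPM per kb in hIAPP, rIAPP and WT), and Cox8a, a small complex IV subunit (151, 135 and 155 CPM per kb). Ndufa1 led complex I (113, 127 and 113 CPM per kb), Uqcrb led complex III (96.7, 109 and 120 CPM per kb), and the flavoprotein gene Sdha led complex II (42.4, 44.7 and 47.0 CPM per kb). The lowest tested member was Cox6b2, at 0.127, 0.147 and 0.131 CPM per kb.

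**Figure D1:**
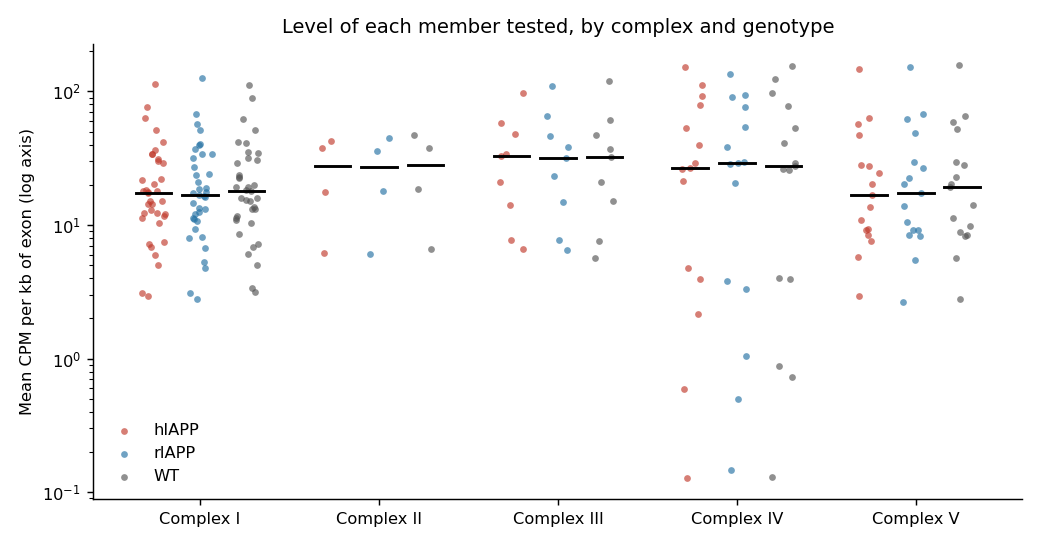
Mean level of each tested member (points) in CPM per kb of exon on a log axis, by complex, in hIAPP, rIAPP and WT islets (6 libraries each); black lines are medians over members. Medians lie between 16.7 and 33.1 CPM per kb in every complex and genotype, and the low points of complex IV are tissue-restricted isoforms together with Cox5a.

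Few members changed between hIAPP and WT islets. Of 82 tested, 4 were called (2 higher, 2 lower), which is 4.88%, while 15.8% of all genes tested were called (8.31% higher, 7.53% lower). Cox6a2 and Uqcrq rose, Ndufs1 and Cox6c fell, and the other 78 did not pass; 12 members had an unadjusted p under 0.05. The members' median log2 fold change was -0.05, against -0.01 for all genes tested, and 59 of the 82 values were below 0. The median size of the log2 change, signs left aside, was 0.06 for members and 0.16 for all genes. Ranges of the 2 genotypes did not overlap for 2 members, Cox6a2 and Uqcrq, and for 6.63% of all genes.

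Against rIAPP islets, hIAPP islets had 8 called members of 82 (4 higher, 4 lower), or 9.76%, and 27.6% of all genes were called (13.5% higher, 14.1% lower). Those higher were Cox6a2, Cox4i2, Cox7a2l and Ndufa7, and those lower were Atp5l, Uqcrc2, Ndufs1 and Uqcrh. The median log2 fold change was 0.00 for members and 0.00 for all genes. Cox4i2 was the only one of the 82 whose hIAPP and rIAPP ranges did not overlap, against 13.4% of all genes.

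In rIAPP against WT islets 7 of 82 members were called (1 higher, 6 lower), or 8.54%, and 26.8% of all genes were called (14.1% higher, 12.6% lower). Ndufs4 rose, and Cox7a2l, Cox6c, Cox4i2, Cox7a1 and Ndufs5 were among those that fell. The median log2 fold change was -0.04 for members and -0.01 for all genes. Ranges did not overlap for Cox7a2l and Ndufs4, against 14.9% of all genes. The 3 comparisons share libraries, so a gene that is extreme in 1 genotype can enter more than 1 of them: 14 members made the 19 calls, and 5 of them were called in 2 comparisons.

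Most members are abundant. Among genes with a mean of at least 1 CPM, 6 of 79 members were called in hIAPP against WT, 10 of 79 in hIAPP against rIAPP and 9 of 79 in rIAPP against WT; the shares of all such genes were 22.6%, 35.1% and 34.3%. The fits also bound the changes that did not pass. The 95% interval of the fold change lay within 1.25-fold either way for 69, 67 and 63 of the 82 members in hIAPP against WT, hIAPP against rIAPP and rIAPP against WT. Within 1.5-fold the counts were 79, 78 and 77. The members outside 1.5-fold in hIAPP against WT were Cox6a2, Cox6b2 and Cox7a1, all tissue-restricted isoforms of complex IV. Cox4i2 joined these 3 in hIAPP against rIAPP, and Cox7a2l was among those added in rIAPP against WT.

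**Figure D2:**
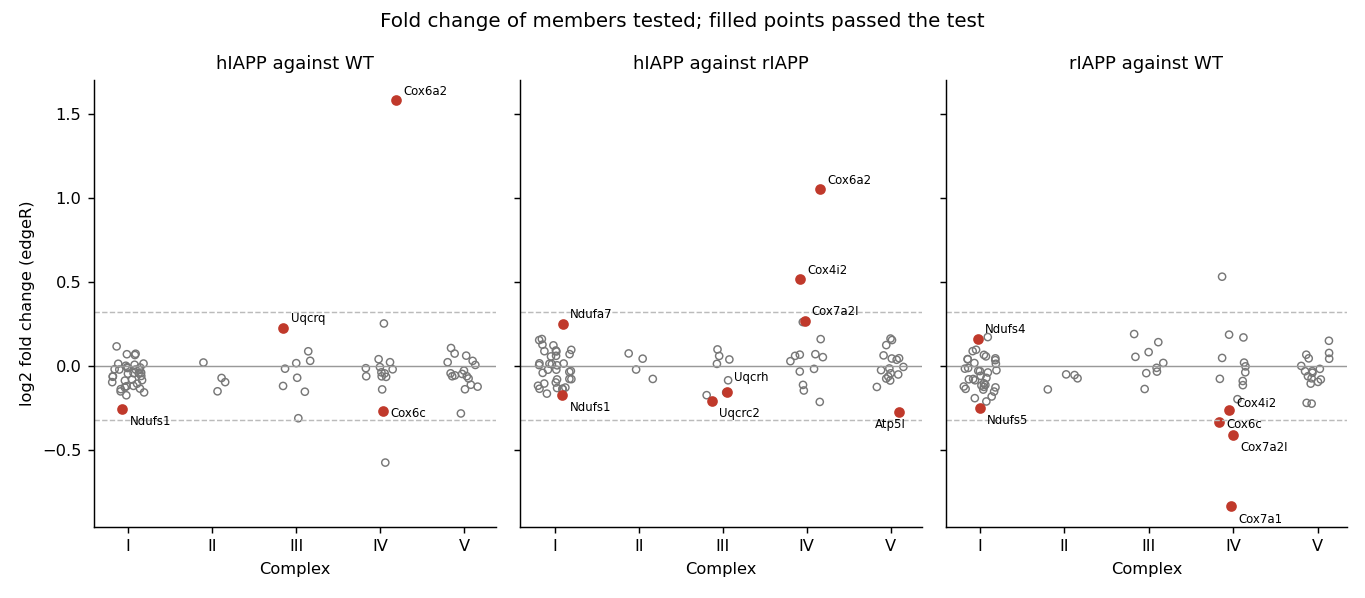
The log2 fold change (y axis) of the tested members by complex (x axis), leaving out 1 that is not reported here, in the 3 comparisons; filled, named points passed an adjusted p of 0.05 and dashed lines mark 1.25-fold either way. Most points lie inside the dashed lines, and the largest changes are those of Cox6a2 and Cox7a1 in complex IV.

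These counts moved when single libraries were left out and when an acinar covariate was added. Without hIAPP 5 and hIAPP 6 together, 1 member was called in hIAPP against WT (Cox6a2), 10 in hIAPP against rIAPP (all higher) and 12 in rIAPP against WT; 8.13%, 24.9% and 28.0% of all genes were called in the same fits. Leaving out WT 5 gave 11 calls in hIAPP against WT (2 higher, 9 lower) and 12 in hIAPP against rIAPP, with 19.2% and 28.8% of all genes called. Leaving out hIAPP 6, WT 2, WT 3 or WT 6 gave 2 in hIAPP against WT, with 11.6% to 13.0% of all genes called. In hIAPP against rIAPP, leaving out rIAPP 2 gave 3 calls, leaving out rIAPP 3 or 5 gave 4, and leaving out hIAPP 3, 5 or 6 gave 5, with 23.8% to 26% of all genes called. In rIAPP against WT, leaving out rIAPP 4 gave 12 calls (all lower), leaving out WT 2 or WT 3 gave 3, and leaving out rIAPP 2 or WT 4 gave 4, with 23.0% to 25.3% of all genes called. With the acinar marker score as a covariate, 0 members were called in hIAPP against WT and 0 in rIAPP against WT. In these fits 3.85% and 10.1% of all genes were called. For hIAPP against rIAPP the covariate gave 6 members, with 26.9% of all genes. The mean log2 CPM of those markers was 4.55 to 6.45 in WT, 5.79 to 8.43 in hIAPP and 6.64 to 8.63 in rIAPP. Acinar level thus moved with genotype, and the 2 cannot be told apart in the comparisons with WT. Scaling by library totals alone gave 8 calls in hIAPP against WT (8 higher, 0 lower) and 18 in rIAPP against WT (16 higher, 2 lower), with 17.9% and 29.4% of all genes called, and it moved the median of all genes to 0.11 and 0.10 on the log2 scale. Relative to that shift the members' median was -0.04 in hIAPP against WT and -0.03 in rIAPP against WT.

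Some libraries stood apart across the members as a whole. Summed over the members, hIAPP libraries averaged 4015 ± 287 CPM, rIAPP libraries 4063 ± 246 CPM and WT libraries 4260 ± 265 CPM (SD, n = 6 each). hIAPP 5 and hIAPP 6 had the lowest hIAPP value for 32 and 30 of the 82 members. rIAPP 4 had the highest rIAPP value for 56 members, and rIAPP 1 the lowest for 37. WT 5 had the lowest WT value for 61 members, with a sum of 3762 CPM where the next lowest WT library had 4228 CPM. The summed beta cell markers put the same libraries at the ends. Their sum was lowest in hIAPP 5 (68720 CPM) and hIAPP 6 (84221 CPM) among hIAPP libraries. Among rIAPP libraries it was lowest in rIAPP 1 (73998 CPM) and highest in rIAPP 4 (101938 CPM), with rIAPP 6 close (101275 CPM). Among WT libraries it was lowest in WT 5 (126592 CPM). By the mean log2 CPM of these markers, rIAPP 6 (10.1) lay above rIAPP 4 (9.86). Sums of other markers shared some of these ends. WT 5 was also the lowest WT library for acinar (1088 CPM), alpha (18118 CPM), delta (1297 CPM), endothelial (500.1 CPM) and ductal markers (262 CPM). It was not the lowest for macrophage (117 CPM) or stellate and mesenchymal markers (806 CPM). hIAPP 5 and hIAPP 6 had the highest hIAPP acinar sums (12097 and 21455 CPM) and the lowest alpha sums (19180 and 19825 CPM). The part of beta cell or other cell content in the members' results was not tested.

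By complex, the summed level of complex I was 1252 ± 96.7 CPM in hIAPP, 1243 ± 71.9 CPM in rIAPP and 1327 ± 82.5 CPM in WT (SD, n = 6 each, as for the sums that follow). Complex II summed to 281 ± 15.8, 288 ± 10.9 and 303 ± 22.5 CPM in hIAPP, rIAPP and WT, and complex III to 408 ± 22.8, 444 ± 18.4 and 443 ± 39.9 CPM. Complex IV summed to 699 ± 71.7, 659 ± 53.3 and 738 ± 35.1 CPM and complex V to 1375 ± 84.7, 1430 ± 97.3 and 1449 ± 90.3 CPM. The ranges of the genotypes overlapped in all 5 complexes for each pair of genotypes, and these sums were not tested. The 13 subunits encoded in mitochondrial DNA summed to 9958 ± 421 CPM in hIAPP, 10623 ± 1796 CPM in rIAPP and 11388 ± 1731 CPM in WT.

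**Figure D3:**
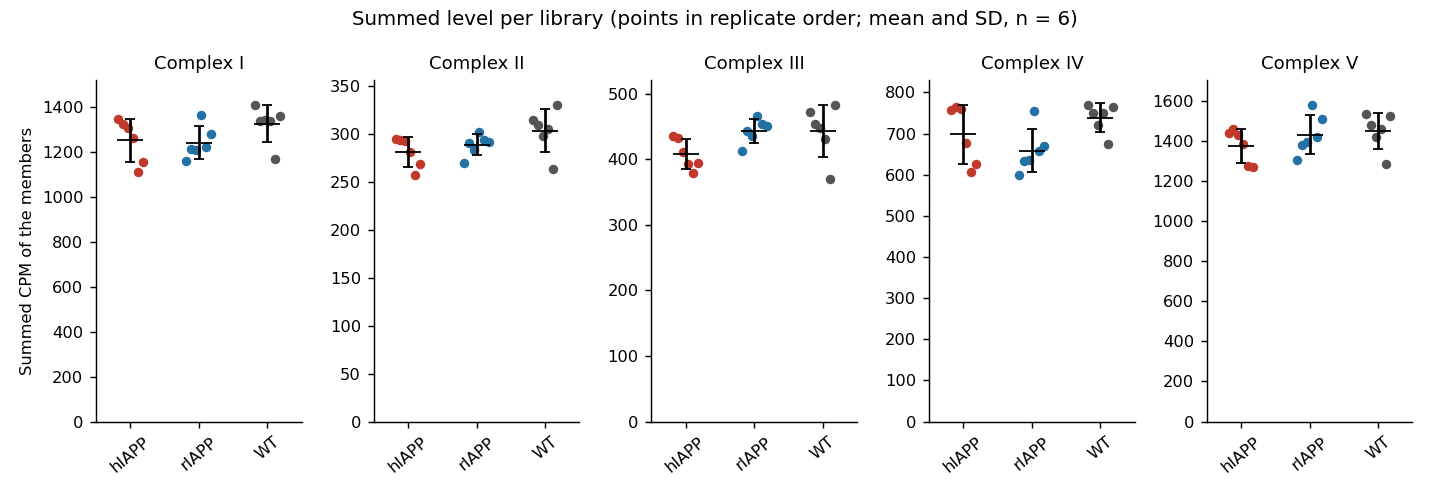
Summed CPM of the members of each complex in every library (points, in replicate order), with the mean and SD of the 6 libraries, for hIAPP, rIAPP and WT. The genotypes overlap in each panel; hIAPP 5 and 6 are low in complexes I, II, IV and V, and WT 5 is the lowest WT library throughout.

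The 7 complex I core subunits hold the flavin, iron-sulphur clusters and quinone site. Ndufs1, the largest of them, which carries iron-sulphur clusters, had a lowest, median and highest level of 50.2, 60.4 and 62.2 CPM in hIAPP, 59.6, 65.4 and 71.4 CPM in rIAPP and 62.1, 69.6 and 74.5 CPM in WT. The hIAPP range lay low but touched the WT range, where hIAPP 4 exceeded WT 5 by a small margin. It fell by 0.26 ± 0.06 on the log2 scale in hIAPP against WT (edgeR adjusted p = 0.0063) and by 0.17 ± 0.06 against rIAPP (edgeR adjusted p = 0.038). In rIAPP against WT the change was -0.09 ± 0.06 (edgeR adjusted p = 0.34). Neither Ndufs1 call held without hIAPP 5 and 6 together, and the call against rIAPP was also lost without hIAPP 5, hIAPP 6, rIAPP 2, rIAPP 4, rIAPP 5 or rIAPP 6 alone. Over the 29 alternatives the adjusted p ran from 5.3e-04 to 0.21 against WT and from 0.014 to 0.20 against rIAPP.

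Of 30 accessory subunits of complex I, edgeR called 0 in hIAPP against WT, 1 in hIAPP against rIAPP and 2 in rIAPP against WT. Of all genes, 15.8%, 27.6% and 26.8% were called. At an unadjusted p under 0.05 there were 2, 6 and 6 of these subunits, and 5794, 7625 and 7307 of all 20244 genes. DESeq2 called 0, 3 and 3 of the subunits, and 19.1%, 30.2% and 29.2% of all genes. limma-voom called 1 (Ndufb3), 4 and 7, and 19.5%, 33.4% and 33.8% of all genes. Ndufs5, a small subunit on the intermembrane space side, had 9.11, 10.5 and 11.2 CPM in hIAPP, 9.20, 9.50 and 9.98 CPM in rIAPP and 9.90, 11.5 and 12.1 CPM in WT. All rIAPP values lay below those of WT apart from WT 5, which fell inside the rIAPP range. Ndufs5 fell by 0.25 ± 0.06 on the log2 scale in rIAPP against WT (edgeR adjusted p = 0.0032; 2.0e-04 to 0.28 over the alternatives).

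Ndufs4, an accessory subunit whose loss in mice gives a Leigh-like encephalopathy, had 18.0, 20.8 and 22.5 CPM in hIAPP, 20.4, 21.8 and 23.1 CPM in rIAPP and 17.7, 19.8 and 20.4 CPM in WT. The lowest rIAPP library was just above the highest WT library. Ndufs4 rose by 0.16 ± 0.06 on the log2 scale in rIAPP against WT (edgeR adjusted p = 0.033). The call was lost without rIAPP 2, rIAPP 4, WT 2, WT 3 or WT 5, with an adjusted p of 4.0e-04 to 0.18 over the alternatives.

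Ndufa7, another accessory subunit, had 17.7, 20.7 and 22.9 CPM in hIAPP, 14.8, 16.9 and 21.3 CPM in rIAPP and 16.8, 18.5 and 21.3 CPM in WT. rIAPP 4 was high at 21.3 CPM, inside the hIAPP range, and the other 5 rIAPP libraries lay below every hIAPP library. Ndufa7 was higher by 0.25 ± 0.08 on the log2 scale in hIAPP against rIAPP (edgeR adjusted p = 0.028). Leaving out any of hIAPP 1, 2 or 3 or rIAPP 1, 2, 3 or 6 ended the call, with an adjusted p of 0.0029 to 0.077 over the alternatives. Ndufa4, named for complex I and since assigned to complex IV, averaged 25.1 CPM in hIAPP, 25.5 CPM in rIAPP and 26.6 CPM in WT and was not called.

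No complex II gene was called by edgeR, and at an unadjusted p under 0.05 the counts were 1 in hIAPP against WT, 0 in hIAPP against rIAPP and 1 in rIAPP against WT. For all genes tested, edgeR called 15.8%, 27.6% and 26.8%, and 5794, 7625 and 7307 of 20244 had an unadjusted p under 0.05. Sdha averaged 175 ± 9.98 CPM in hIAPP, 184 ± 7.75 CPM in rIAPP and 194 ± 15.7 CPM in WT (SD, n = 6 each), with a log2 change of -0.15 ± 0.06 in hIAPP against WT (edgeR adjusted p = 0.082). It was called lower in that comparison without WT 5, and also by DESeq2 and limma-voom. Sdhc was called lower in rIAPP against WT without rIAPP 4 and by limma-voom. All 4 genes of complex II had a fold change whose 95% interval lay within 1.25-fold either way in all 3 comparisons.

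In complex III, Uqcrq, a small membrane subunit, had 11.8, 12.1 and 12.9 CPM in hIAPP, 10.8, 11.3 and 15.1 CPM in rIAPP and 9.65, 10.5 and 10.8 CPM in WT. Every hIAPP library lay above every WT library, and the rIAPP group was wide because of rIAPP 4 at 15.1 CPM. Uqcrq rose by 0.23 ± 0.07 on the log2 scale in hIAPP against WT (edgeR adjusted p = 0.034), and was 0.19 ± 0.07 in rIAPP against WT (edgeR adjusted p = 0.054). The hIAPP call was lost without hIAPP 5, hIAPP 6, WT 2, WT 3 or WT 6, with an adjusted p of 0.0032 to 0.40 over the alternatives.

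Uqcrc2, a core protein of the matrix side, had 74.1, 83.0 and 92.9 CPM in hIAPP, 91.3, 97.1 and 104 CPM in rIAPP and 75.6, 94.8 and 106 CPM in WT. Only hIAPP 1 and 2 reached the rIAPP range. Its log2 change was -0.21 ± 0.07 in hIAPP against rIAPP (edgeR adjusted p = 0.032), a call lost without any of hIAPP 4, 5 or 6 or rIAPP 4, 5 or 6. Uqcrh, the hinge protein, averaged 72.4 ± 4.88 CPM in hIAPP, 80.5 ± 4.45 CPM in rIAPP and 76.0 ± 5.23 CPM in WT (SD, n = 6 each) and had a log2 change of -0.15 ± 0.06 in hIAPP against rIAPP (edgeR adjusted p = 0.049). The Uqcrh call held in 13 of 29 alternative settings and was lost without any of hIAPP 3 to 6, rIAPP 2 to 5 or WT 1 to 4. The adjusted p ran from 0.0090 to 0.14 for Uqcrc2 and from 0.018 to 0.17 for Uqcrh over the alternatives. Uqcrb was the most variable in WT of the 79 members averaging at least 1 CPM (coefficient of variation 20.5%), with 72.3, 83.9 and 99.4 CPM in hIAPP against 71.8, 113 and 129 CPM in WT.

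Complex IV held 4 of the 7 members called in rIAPP against WT and 3 of the 8 called in hIAPP against rIAPP. Of its 15 tested members these are 26.7% and 20%, where 26.8% and 27.6% of all genes were called. The 6 common isoforms with a tissue-restricted partner (Cox4i1, Cox6a1, Cox6b1, Cox7a2, Cox7b and Cox8a) had 0 edgeR calls in all 3 comparisons, with 0, 0 and 1 of them at an unadjusted p under 0.05. DESeq2 called 0, and limma-voom called Cox8a in hIAPP against rIAPP and in rIAPP against WT, as did edgeR without rIAPP 4 and without hIAPP 5 and 6 together. Their log2 changes ran between -0.06 and 0.02 in hIAPP against WT. Of the 7 tissue-restricted isoforms 4 were tested. edgeR called 1 in hIAPP against WT (Cox6a2), 2 in hIAPP against rIAPP (Cox6a2 and Cox4i2) and 2 in rIAPP against WT (Cox4i2 and Cox7a1). Of all genes, 15.8%, 27.6% and 26.8% were called in these comparisons, and 4 genes are too few to set a share against them.

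Cox6a2, the heart and muscle form of subunit 6a, had 0.829, 1.30 and 2.38 CPM in hIAPP, 0.368, 0.571 and 1.33 CPM in rIAPP and 0.244, 0.534 and 0.747 CPM in WT (lowest, median and highest). All hIAPP libraries were above all WT libraries, with hIAPP 5 and hIAPP 6 the highest at 2.05 and 2.38 CPM, and rIAPP 1 and rIAPP 5 overlapped the hIAPP range. Cox6a2 rose by 1.58 ± 0.34 on the log2 scale in hIAPP against WT (edgeR adjusted p = 0.0034; 4.2e-05 to 0.20 over 28 alternatives, the highest with the acinar covariate), or 3.0-fold. Against rIAPP it rose by 1.05 ± 0.33 (edgeR adjusted p = 0.023), a call lost without hIAPP 5, hIAPP 6, rIAPP 2 or rIAPP 3 (adjusted p 0.0045 to 0.20 over the alternatives). These levels rest on 34 to 289 counts per library. Of the subunit 6a level per kb, Cox6a2 made up 2.69 ± 1.16% in hIAPP, 1.36 ± 0.70% in rIAPP and 0.933 ± 0.41% in WT (SD, n = 6 each), the rest being Cox6a1.

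Cox6a2 (chr7:128205435-128206387, minus strand, GRCm38) shares 70 of its 680 exon bases with Itgad, the integrin alpha D gene on the opposite strand, which is known from macrophages. Itgad averaged 1.26 ± 0.58 CPM in hIAPP, 0.349 ± 0.084 CPM in rIAPP and 0.362 ± 0.075 CPM in WT (SD, n = 6 each). It was higher by 1.80 on the log2 scale in hIAPP against WT (edgeR adjusted p = 1.4e-04) and by 1.85 against rIAPP (edgeR adjusted p = 2.6e-05). Its highest libraries were hIAPP 6 (1.99 CPM) and hIAPP 5 (1.97 CPM), the same as for Cox6a2. In rIAPP 1, where Cox6a2 was at 1.33 CPM, Itgad was at 0.467 CPM. The strand setting of the counting is not given in the sources used here, so reads of Cox6a2 and Itgad cannot be told apart in the shared stretch. Of 12 macrophage markers, 10 rose in hIAPP against WT, with summed levels of 309 to 610 CPM in hIAPP, 69.1 to 84.7 CPM in rIAPP and 106 to 122 CPM in WT; their part in the Cox6a2 result was not tested. Of 6 muscle markers, Acta1 averaged 1.15 CPM in hIAPP, 0.867 CPM in rIAPP and 0.947 CPM in WT, and the other 5, Ckm, Mb and Tnnt3 among them, averaged at most 0.110 CPM in each genotype. Summed levels were 1.07 to 1.58 CPM in hIAPP, 0.776 to 1.71 CPM in rIAPP and 0.835 to 1.29 CPM in WT. Of these only Acta1 and Myl1 could be tested, and edgeR called neither; in hIAPP against rIAPP their log2 changes were 0.40 and -1.04, both with an unadjusted p under 0.05.

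Cox4i2, the lung isoform of subunit 4, known for a part in oxygen sensing, had 3.18, 3.81 and 4.0 CPM in hIAPP, 2.17, 2.58 and 3.03 CPM in rIAPP and 2.80, 3.14 and 3.41 CPM in WT. Every hIAPP library was above every rIAPP library, and WT lay between and overlapped both. Cox4i2 was higher by 0.52 ± 0.10 on the log2 scale in hIAPP against rIAPP (edgeR adjusted p = 3.9e-04), or 1.43-fold, and the call held in all 29 alternative settings run for it (adjusted p 8.6e-07 to 0.0019). It fell by 0.26 ± 0.10 in rIAPP against WT (edgeR adjusted p = 0.049), a call that held in 10 of 29 settings (adjusted p 0.023 to 0.34). Among single libraries left out, it held only without hIAPP 5, rIAPP 3, rIAPP 4 or WT 1. The change in hIAPP against WT was 0.25 ± 0.10 (edgeR adjusted p = 0.081). Its share of subunit 4 per kb was 8.20 ± 0.64% in hIAPP, 5.74 ± 0.69% in rIAPP and 6.93 ± 0.73% in WT (SD, n = 6 each), the rest being Cox4i1. Of 6 stellate and mesenchymal markers, 2 were higher and 1 lower in hIAPP against rIAPP, with summed levels of 985 to 1800 CPM in hIAPP, 1187 to 2028 CPM in rIAPP and 711 to 1023 CPM in WT; their part in the Cox4i2 result was not tested.

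Cox7a1, the heart and muscle form of subunit 7a, was at 0.132, 0.303 and 0.483 CPM in hIAPP, 0.117, 0.262 and 0.390 CPM in rIAPP and 0.318, 0.446 and 0.625 CPM in WT. The ranges overlapped in every pair. It fell by 0.84 ± 0.30 on the log2 scale in rIAPP against WT (edgeR adjusted p = 0.046), on 16 to 92 counts per library, and the call held in 12 of 28 settings (adjusted p 0.0061 to 0.47). It was lost without any of hIAPP 2 to 5, rIAPP 1, 3, 4 or 5 or WT 1, 2, 3, 4 or 6. Cox6b2 had no call, with 7 to 36 counts per library. Cox8b and Cox7b2 had at most 8 and 17 counts in a library.

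**Figure D4:**
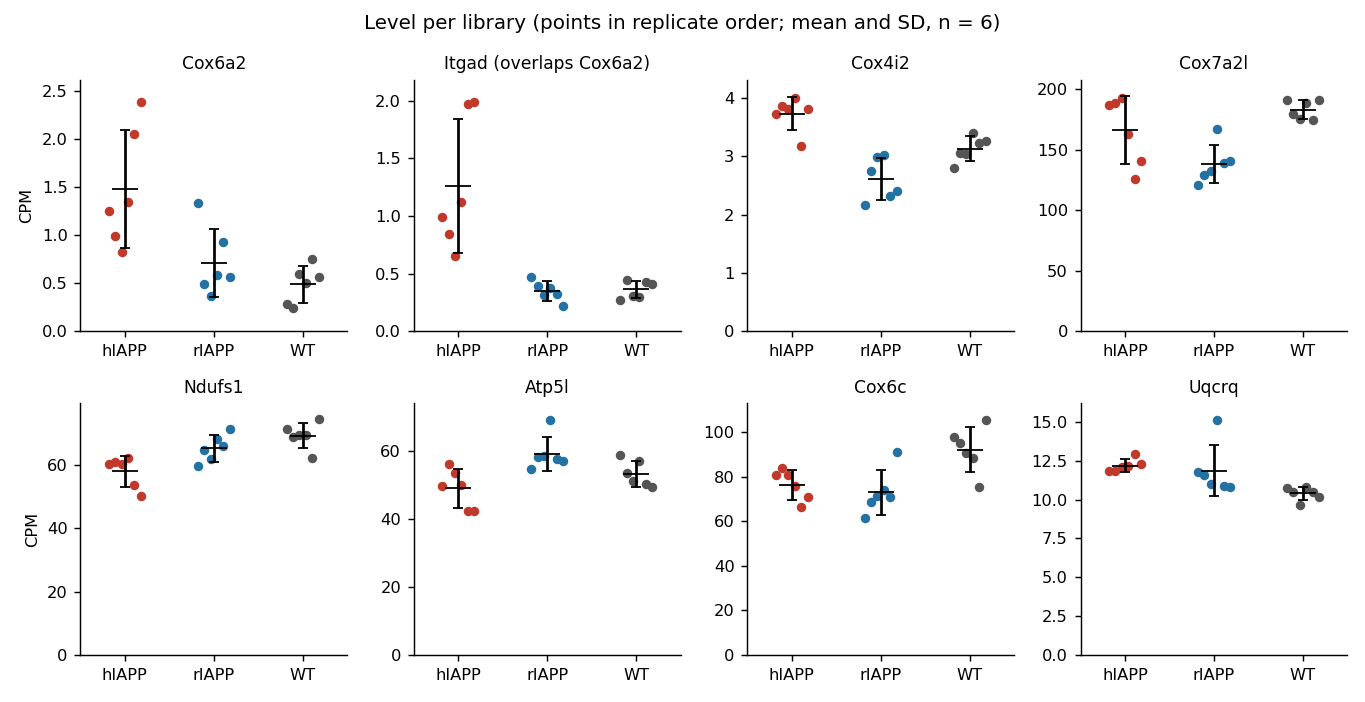
CPM of 7 members and of Itgad, the gene that overlaps Cox6a2, in every library (points, in replicate order), with the mean and SD of 6 libraries per genotype. Cox6a2 and Itgad are both highest in hIAPP 5 and 6, all hIAPP points of Cox4i2 lie above the rIAPP points, and all rIAPP points of Cox7a2l lie below the WT points.

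Cox7a2l, also called Scaf1, belongs to the subunit 7a family and joins complexes III and IV in supercomplexes. It had 126, 175 and 192 CPM in hIAPP, 120.5, 136 and 167 CPM in rIAPP and 174, 184 and 191 CPM in WT. Every rIAPP library was below every WT library, and the hIAPP libraries were split, with hIAPP 5 and 6 at 126 and 141 CPM and hIAPP 1 to 3 at 187 to 192 CPM. Cox7a2l fell by 0.41 ± 0.09 on the log2 scale in rIAPP against WT (edgeR adjusted p = 0.0026; 1.1e-04 to 0.53 over the alternatives, the highest with the acinar covariate), or to 0.753-fold. It was higher by 0.27 ± 0.09 in hIAPP against rIAPP (edgeR adjusted p = 0.039), a call that held in 17 of 29 settings (adjusted p 4.4e-04 to 0.11) and was lost without any of hIAPP 1 to 4 or rIAPP 1, 2, 3, 5 or 6.

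Cox6c, a small membrane subunit, had 66.3, 78.4 and 83.8 CPM in hIAPP, 61.6, 71.1 and 91.3 CPM in rIAPP and 75.3, 92.9 and 105 CPM in WT. The WT libraries other than WT 5 lay above all hIAPP libraries, and WT 5 fell inside the hIAPP range, while rIAPP 6 alone of its group reached the other WT libraries. Cox6c fell by 0.34 ± 0.09 on the log2 scale in rIAPP against WT (edgeR adjusted p = 0.0064) and by 0.27 ± 0.09 in hIAPP against WT (edgeR adjusted p = 0.042). The call in rIAPP against WT held in 28 of 29 settings, the exception being the acinar covariate (adjusted p 1.8e-04 to 0.35). The call in hIAPP against WT held in 13 of 29 (adjusted p 0.011 to 0.43) and was lost without any of hIAPP 4, 5 or 6, rIAPP 2, 3 or 5 or WT 1, 2, 3, 4 or 6.

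In complex V, edgeR made 0 calls among the 5 genes of the catalytic head and central stalk, the 3 c-ring genes and the 4 peripheral stalk genes. At an unadjusted p under 0.05 the head and central stalk had 0 in hIAPP against WT, 1 in hIAPP against rIAPP and 1 in rIAPP against WT, and the c ring and peripheral stalk had 0. limma-voom called Atp5d, Atp5e and Atp5g2 in hIAPP against rIAPP and Atp5e and Atp5j in rIAPP against WT, and DESeq2 called Atp5e in rIAPP against WT. For all genes in hIAPP against WT, hIAPP against rIAPP and rIAPP against WT, edgeR called 15.8%, 27.6% and 26.8%. Those with an unadjusted p under 0.05 were 5794, 7625 and 7307 of 20244. limma-voom called 19.5%, 33.4% and 33.8% of all genes, and DESeq2 called 19.1%, 30.2% and 29.2%. Atp5a1 averaged 460 ± 26.5 CPM in hIAPP, 477 ± 30.2 CPM in rIAPP and 497 ± 32.6 CPM in WT (SD, n = 6 each). The 3 genes Atp5g1, Atp5g2 and Atp5g3 encode the same mature c subunit with different import signals. Atp5g3 gave 61.3 ± 1.26% of their summed level per kb in hIAPP, 63.2 ± 2.24% in rIAPP and 62.8 ± 1.57% in WT, and Atp5g2 gave 13.1 ± 1.27%, 12.0 ± 0.79% and 12.3 ± 0.61% (SD, n = 6 each). These shares rest on the merged exon lengths, 4912 bases for Atp5g1 and 2181 for Atp5g3. Before division by length, Atp5g1 averaged 28.1, 26.9 and 27.7 CPM and Atp5g3 29.8, 30.4 and 31.0 CPM in hIAPP, rIAPP and WT.

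Atp5l, subunit g of the membrane part, which takes part in dimer formation, was the only complex V member called by edgeR. It had 42.2, 49.8 and 56.1 CPM in hIAPP, 54.7, 58.0 and 69.2 CPM in rIAPP and 49.4, 52.4 and 58.9 CPM in WT. Only hIAPP 2 reached the rIAPP range. Atp5l was -0.27 ± 0.07 on the log2 scale in hIAPP against rIAPP (edgeR adjusted p = 0.0084), and lost the call only without hIAPP 5 and 6 together (adjusted p 0.0023 to 0.060 over the 29 alternatives). Atp5md, another small membrane subunit, came nearest to a call in hIAPP against WT, with 46.1 CPM on average in hIAPP and 56.1 CPM in WT and a log2 change of -0.28 ± 0.10 (edgeR adjusted p = 0.053). It was called lower there by DESeq2, with RLE scaling, with the filter at a mean CPM of 1, and without hIAPP 2, rIAPP 1, rIAPP 6 or WT 5.

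Exons of 30 members are overlapped by another gene in GENCODE M21, 27 of them on the opposite strand. Among called members beside Cox6a2, these include Cox6c, Ndufs1, Uqcrc2 and Atp5l. Eef1b2, which overlaps Ndufs1, averaged 132 CPM in hIAPP, 154 CPM in rIAPP and 135 CPM in WT. Its log2 change was -0.23 in hIAPP against rIAPP (edgeR adjusted p = 0.0045), the direction of Ndufs1, and -0.04 in hIAPP against WT (edgeR adjusted p = 0.75). Vps13b, which overlaps Cox6c, averaged 132 CPM in hIAPP, 117 CPM in rIAPP and 132 CPM in WT and was not called, and the partners of Uqcrc2 and Atp5l averaged at most 0.267 CPM. Reads of the overlapping stretches cannot be told apart.

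Other genes of mitochondrial respiration were read from lists of known members. Their calls come from the main edgeR fit alone, and the alternative settings, the acinar covariate among them, were not read for these lists. Of 46 assembly factors, 3 fell and 0 rose in hIAPP against WT, 3 fell and 0 rose in hIAPP against rIAPP, and 3 rose and 4 fell in rIAPP against WT. These are 6.52%, 6.52% and 15.2% called, where 15.8%, 27.6% and 26.8% of all genes were called. Ndufaf6, a complex I assembly factor, averaged 2.54 CPM in hIAPP, 2.27 CPM in rIAPP and 3.71 CPM in WT and fell by 0.55 ± 0.13 and 0.71 ± 0.14 on the log2 scale in hIAPP and rIAPP against WT (edgeR adjusted p = 0.0090 and 4.5e-04). Timmdc1, also a complex I assembly factor, averaged 16.9 CPM in hIAPP, 21.4 CPM in rIAPP and 15.7 CPM in WT and rose by 0.44 ± 0.06 in rIAPP against WT (edgeR adjusted p = 9.8e-06).

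The 14 tricarboxylic acid cycle enzymes, which feed NADH and succinate to the chain, had 6 lower and 0 higher in hIAPP against WT (42.9%, against 7.53% of all genes lower) and 6 lower and 0 higher in rIAPP against WT (42.9%, against 12.6% of all genes lower). Idh3a, a subunit of the NAD-linked isocitrate dehydrogenase, averaged 26.9 CPM in hIAPP, 28.3 CPM in rIAPP and 33.1 CPM in WT, a log2 change of -0.30 ± 0.07 in hIAPP against WT (edgeR adjusted p = 0.0051) and -0.23 ± 0.07 in rIAPP against WT (edgeR adjusted p = 0.016). Dlst and Fh1 also fell in both. In hIAPP against rIAPP, Idh2 and Ogdh were higher and Idh3g and Suclg1 lower (28.6% called, against 27.6% of all genes).

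Among 13 partners outside the name patterns, 2 rose and 1 fell in hIAPP against WT, and 2 were higher and 2 lower in hIAPP against rIAPP. In rIAPP against WT 1 rose and 1 fell. These are 23.1%, 30.8% and 15.4% called, where 15.8%, 27.6% and 26.8% of all genes were called. Vdac1, the outer membrane channel, averaged 114 ± 1.85 CPM in hIAPP, 71.5 ± 6.12 CPM in rIAPP and 113 ± 8.58 CPM in WT (SD, n = 6 each). It fell by 0.66 ± 0.06 on the log2 scale in rIAPP against WT (edgeR adjusted p = 4.3e-08) and was higher by 0.68 ± 0.06 in hIAPP against rIAPP (edgeR adjusted p = 3.1e-08). Ucp2, an inner membrane carrier named as an uncoupling protein, rose by 0.28 ± 0.08 in hIAPP and 0.43 ± 0.08 in rIAPP against WT (edgeR adjusted p = 0.017 and 2.5e-04). Ndufa4l2, a hypoxia-induced relative of Ndufa4, rose by 0.35 ± 0.08 in hIAPP against WT and 0.40 ± 0.08 against rIAPP (edgeR adjusted p = 0.0069 and 0.0010). Cytochrome c (Cycs), which carries electrons from complex III to complex IV, fell by 0.26 ± 0.07 in hIAPP against WT and 0.36 ± 0.07 against rIAPP (edgeR adjusted p = 0.019 and 8.7e-04).

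Of 12 regulators of mitochondrial biogenesis, 1 fell in hIAPP against WT, 1 fell in hIAPP against rIAPP and 1 rose in rIAPP against WT. These are 8.33% each, where 15.8%, 27.6% and 26.8% of all genes were called in those comparisons. Ppargc1a, the coactivator PGC-1 alpha, averaged 1.72 ± 0.56 CPM in hIAPP, 2.35 ± 0.51 CPM in rIAPP and 1.21 ± 0.22 CPM in WT (SD, n = 6 each) and rose by 0.96 ± 0.19 in rIAPP against WT (edgeR adjusted p = 6.7e-04). Gabpb1, a subunit of the GABP factor, fell by 0.25 ± 0.07 in hIAPP against WT and 0.27 ± 0.07 against rIAPP (edgeR adjusted p = 0.020 and 0.0073). Of 19 import translocases, 0 rose and 4 fell in hIAPP against WT. In hIAPP against rIAPP 1 rose and 1 fell, and in rIAPP against WT 1 fell. These are 21.1%, 10.5% and 5.26% called. Of 78 mitochondrial ribosomal proteins, 4, 6 and 4 were called in the 3 comparisons in that order (5.13%, 7.69% and 5.13%). Of the 13 mitochondrially encoded subunits, edgeR called 0 in hIAPP against WT (0 at an unadjusted p under 0.05). In hIAPP against rIAPP 3 were lower (mt-Nd1, mt-Nd2 and mt-Atp6), or 23.1%. In rIAPP against WT 2 were higher (mt-Nd2 and mt-Atp6), or 15.4%.

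**Figure D5:**
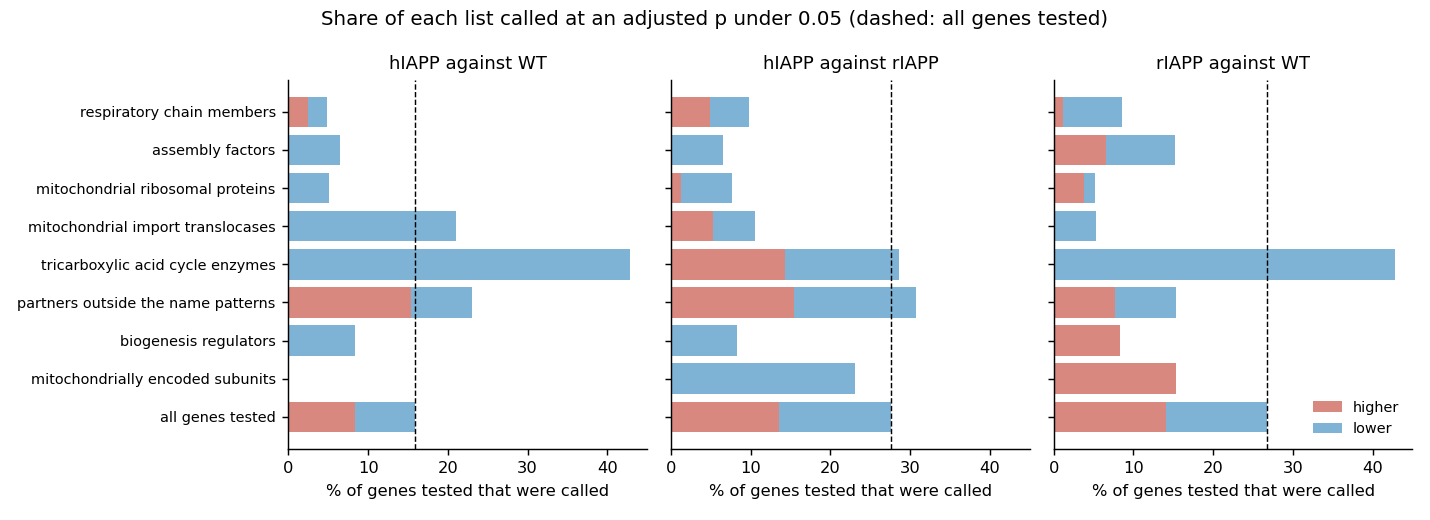
Percent of genes tested that were called higher or lower (stacked bars) in each list and among all genes tested, for the 3 comparisons; the dashed line is the share over all genes. The share of respiratory chain members called is 4.88%, 9.76% and 8.54%, left of the dashed line in each comparison, and the tricarboxylic acid cycle enzymes reach 42.9% in hIAPP and in rIAPP against WT.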

How the data were processed

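RNA was sequenced from islets of 18 mice, about 165 per mouse, with RIN 8.4 to 9.5, per the labels' protocols, as TruSeq libraries after ribosomal RNA depletion. The deposited values are estimated counts per gene symbol, made by the authors; STAR, HTSeq, GRCm38 and mm10 are named without versions, per the submitters' processing notes. Of the values above 0, 39.2% were not whole, and they were rounded before testing. How fractions arose, which annotation was used and whether strand was counted were likewise not given in the sources used here. All 86 members matched GENCODE M21, 3 by another symbol. Of these, Ndufb1 matched Ndufb1-ps, which is annotated there as a noncoding RNA of a bidirectional promoter. The exons of GENCODE M21, merged per gene, gave lengths and overlaps.

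The labels give each sample a genotype and a mouse number that differs between genotypes; libraries are numbered 1 to 6 here in accession order within a genotype, which pairs nothing. Counts were fitted with edgeR 4.0.16 in R 4.3.3 (TMM factors, filterByExpr, 1 mean per genotype, 15 residual degrees of freedom), checked on simulated data. Each mouse is 1 sample, and litter or batch was not stated. Alternatives used DESeq2 1.42.0, limma-voom 3.58.1, other scalings and filters, fewer libraries and an acinar covariate. Full values were given for the other called members, the highest and lowest member per complex, and isoform pairs. Members and lists were chosen with earlier results of these data known. The floor for Cox8c covers counting error only. The values of 1 member are not reported here, though counts, medians and sums over the members include it.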

Additional observations from a re-analysis of the deposited data

Results flagged for a closer look

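Among 114 sets of 6 libraries, 8 had an end value set apart from the other 5 by more than Dixon's 95% critical value, and chance alone gives about 1 such set in 20. Of the 8, 5 were rIAPP 4, the highest of its group, for Atp5g3 (36.3 CPM), Atp5l (69.2 CPM), Cox6a1 (61.6 CPM), Ndufa7 (21.3 CPM) and Uqcrq (15.1 CPM). WT 5 was lowest of its group in the summed level of all members (3762 CPM) and of complex I (1168 CPM). hIAPP 5 was lowest of its group for Cox4i2 (3.18 CPM), and the Cox4i2 call in hIAPP against rIAPP held without it.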

How the results depend on the processing

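No paired analysis was possible because the mouse numbers in the labels differ between the genotypes and pair nothing. Of the 19 calls, 0 changed sign in any alternative run, and the cause of the moves below was not tested. For hIAPP against WT, where 4 members were called, DESeq2 gave 9, limma-voom 9, library totals alone 8, no filter on low counts 2, leaving out hIAPP 5 and 6 together 1, the acinar covariate 0 and a threshold of 0.01 gave 2. Leaving out single libraries gave 2 to 11, the highest without WT 5. Of all genes, 15.8% were called in the main fit, 19.1% by DESeq2, 19.5% by limma-voom and 17.9% with library totals alone. The share was 6.46% with no filter, 8.13% without hIAPP 5 and 6, 3.85% with the acinar covariate and 11.6% to 19.2% without single libraries. For hIAPP against rIAPP, with 8, limma-voom gave 16, no filter 4, only the 2 genotypes compared 5 and a threshold of 0.01 gave 2. Leaving out single libraries gave 3 to 12, the lowest without rIAPP 2 and the highest without WT 5. Of all genes, 27.6% were called in the main fit, 33.4% by limma-voom and 12.5% with no filter. The share was 27.3% with only the 2 genotypes and 23.8% to 28.8% without single libraries. For rIAPP against WT, with 7, limma-voom gave 18, library totals alone 18, no filter 4, leaving out hIAPP 5 and 6 together 12, the acinar covariate 0 and a threshold of 0.01 gave 3. Leaving out single libraries gave 3 to 12, the lowest without WT 2 or WT 3 and the highest without rIAPP 4. Of all genes, 26.8% were called in the main fit, 33.8% by limma-voom, 29.4% with library totals alone and 12.5% with no filter. The share was 28.0% without hIAPP 5 and 6, 10.1% with the acinar covariate and 23.0% to 27.4% without single libraries. In the other alternatives the counts of members called stayed within 1.5 times. Cox7a1, Cox6b2 and Cox6a2 rest on few counts, which limits their precision.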
